A study of Mus musculus with 25 samples.

Results

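Days 4 to 8 of an 8-day follicle culture were examined by comparing the 3 arrays of day 8 with the 3 arrays of day 4, chosen by the day that the labels give each sample. These are 6 of the 20 follicle arrays and of the 25 arrays in the series. Each array carried RNA from a pool of 20 to 40 mouse ovarian follicles, and the protocol speaks of 3 independent experiments per group. The follicles were multilayered secondary follicles, 150 to 180 µm across, isolated mechanically from CD-1 mice 16 days old. Day 4 and day 8 follicles shared strain, age at isolation and medium: each was enclosed singly in alginate, a seaweed gel that keeps the follicle round, and grown with 10 mIU/ml FSH, bovine albumin, fetuin, insulin, transferrin and selenium, and the groups differ in the days spent in culture. No LH was listed among the additions to the medium, and the mice carried no allele or treatment that the labels record. Because each pool holds whole follicles, a level averages granulosa cells, theca cells and oocytes. The p-values measure only the spread between pools of the same day, estimated over all 20 follicle arrays.

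A secondary follicle is an oocyte wrapped in several layers of granulosa cells, with theca cells outside the basement membrane. FSH drives granulosa cells to divide and to make oestradiol from androgen, which theca cells supply in response to LH. As a follicle matures it forms a fluid-filled antrum, and LH receptors and steroid enzymes appear in its wall, while the oocyte signals back through growth factors of its own.

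Markers of all 3 cell types were measured on both days. Levels are log2 of the normalized bead signal throughout, so a difference of 1 is a doubling of signal, and levels of different genes cannot be compared. Fshr, the FSH receptor of granulosa cells, Inha and Amhr2 were above background on all 6 arrays, and Foxl2 on all 3 day 4 arrays but only 2 of the 3 at day 8. Cyp17a1 and Nr2f2 of theca cells and Gdf9, Bmp15 and Zp3 of the oocyte were also above background on all 6 arrays, whereas Insl3, the peptide hormone of theca cells, was above background at day 8 and on no array of day 4. Inha (log2 change −0.19), Amhr2 (0.22), Foxl2 (−0.53) and Nr2f2 (−0.32) did not pass the test between the days, and neither did Actb (0.20) nor Gapdh (0.16). Rplp0, a ribosomal protein gene often used as a reference, fell by 0.89 (adjusted p = 0.0021).

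In all, 1850 of 10688 genes tested differed between day 8 and day 4 at an adjusted p under 0.05 in limma, which is 17.3% of them. Of these 973 (9.1%) were higher at day 8 and 877 (8.21%) were lower, and the median change of all genes was −0.01. These shares are the background against which each list count below is to be read. Large changes were mostly upward: 328 of the higher and 184 of the lower genes changed at least 2-fold, and 38 and 8 at least 4-fold. Of the 1850 genes 1791 had no overlap between day 4 and day 8 arrays, so a lack of overlap does not set a called gene apart. The share without overlap among all genes tested is not given here. Genes that did not pass can lack overlap too, as Zp3 did (adjusted p = 0.138 in limma), so it only describes the levels below. Without repeat 1 of day 4 the number of higher genes was 643. The spread behind these calls came from all 20 follicle arrays, and with the day 0 arrays left out of the fit 1316 genes passed. With only the 6 arrays normalized and fitted on their own 1204 genes passed, 647 higher and 557 lower. Detection moved too: 79 genes were above background on all 3 day 8 arrays and on none of day 4, of which 66 passed the test, and 57 genes showed the reverse, of which 42 passed. Correlations between arrays of one day were 0.978 to 0.988 at day 4 and 0.978 to 0.99 at day 8, and those between arrays of different days were 0.957 to 0.972.

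The largest rise was that of Comp, which encodes cartilage oligomeric matrix protein. It stood at 6.21, 5.99 and 5.3 on the day 4 arrays and at 11.28, 11.16 and 10.77 on the day 8 arrays. At day 4 it was above background on 2 of the 3 arrays. The rise of Comp was 5.24 (SE 0.29, adjusted p = 1.31e-09), or 37.7-fold, and over 17 alternative settings the change lay between 2.77 and 5.42. Ibsp, encoding bone sialoprotein, another matrix protein best known from mineralised tissue, had levels of 5.47, 5.35 and 5.82 at day 4 and 9.71, 8.95 and 9.28 at day 8 (rise of 3.77, SE 0.22, adjusted p = 1.31e-09). At day 4 Ibsp was above background on 1 of the 3 arrays, and over the alternative settings its change lay between 1.49 and 3.95. A second probe of Ibsp rose by 2.24. Vcam1, an adhesion molecule that binds integrins, was already well expressed at day 4, at 9.44, 9.81 and 9.21. It reached 12.79, 12.98 and 12.88 at day 8 (rise of 3.39, SE 0.24, adjusted p = 2.16e-08).

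**Figure D1:**
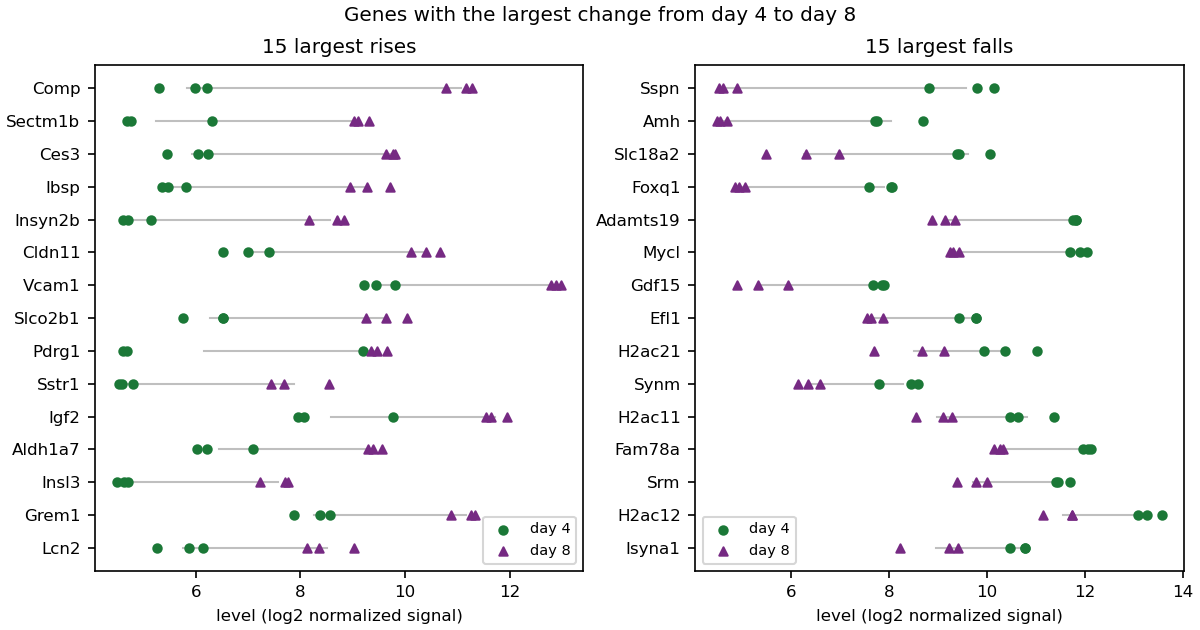
Levels (log2 normalized signal, horizontal axis) of the 15 strongest risers and 15 strongest fallers between day 4 (circles, 3 arrays) and day 8 (triangles, 3 arrays), with a line joining the day means. The genes were chosen among those whose groups do not overlap, and the day 4 circle of Pdrg1 at 9.19 lies next to the day 8 triangles.

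Several of the other leading rises were in signalling genes. Igf2, encoding insulin-like growth factor 2, which stimulates follicle cell growth, had day 4 levels of 8.06, 7.96 and 9.76 and day 8 levels of 11.64, 11.54 and 11.94. Repeat 3 of day 4 was the highest of its day by a wide margin. Every day 8 array lay above it, as the choice of the leading genes required. The rise of Igf2 was 3.12 (SE 0.31, adjusted p = 1.72e-06). Grem1, an antagonist of bone morphogenetic proteins that granulosa cells make, rose from 8.56, 8.37 and 7.87 to 10.88, 11.33 and 11.26 (2.89, SE 0.20, adjusted p = 2.16e-08). Insl3 was not above background at day 4 and stood at 7.22, 7.71 and 7.77 on the day 8 arrays, which is at least 4.3-fold higher (adjusted p = 3.92e-06). This was not its first appearance, since it was above background on all 5 day 0 and all 3 day 2 arrays, with means of 5.83 and 5.62. Sstr1, a somatostatin receptor, had no day 4 array above background and was at least 5.34-fold higher (adjusted p = 8.81e-07). Insyn2b, also without signal above background on the day 4 arrays, was at least 8.55-fold higher (adjusted p = 4.34e-08). These 3 bounds hold for the main processing only. Over the alternative settings the log2 change was as small as 0.72 for Insl3, 0.86 for Sstr1 and 1.15 for Insyn2b. Cldn11, a claudin of tight junctions, rose by 3.42, and Slco2b1, a transporter of organic anions that include sulphated steroids, by 3.37.

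Of the rest of the 15 largest rises, Sectm1b, which encodes a secreted and transmembrane protein, read 4.76, 4.69 and 6.31 at day 4 and 9.02, 9.31 and 9.09 at day 8 (rise of 3.88, adjusted p = 1.96e-06). At day 4 it was above background on 1 of the 3 arrays. It did not climb steadily, since its mean was 9.08 at day 2 and 4.61 at day 6. Ces3, named in the file as a carboxylesterase gene and kept under that name, rose by 3.81, Lcn2, a lipocalin that binds iron-carrying siderophores, by 2.74, and Aldh1a7, an aldehyde dehydrogenase whose probe may also pick up the near-identical Aldh1a1, by 2.96. Ces3 and Lcn2 were each above background on 2 of the 3 day 4 arrays. Pdrg1 passed with a rise of 3.33 (SE 0.71, adjusted p = 0.00279), but its day 4 arrays disagreed: repeats 1 and 2 read 4.61 and 4.69 and repeat 3 read 9.19, close to the 9.35 to 9.66 of day 8. Over the alternative settings its change ranged from 1.25 to 4.84 and its adjusted p reached 0.0498.

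The largest falls included hormones and regulators of the growing follicle. Sspn, encoding sarcospan of the dystrophin complex, was at 9.79, 10.14 and 8.82 at day 4 and was not above background on any day 8 array, at least 17.7-fold lower (adjusted p = 1.31e-09). Amh, encoding anti-Müllerian hormone, which granulosa cells of small growing follicles secrete, read 7.72, 7.75 and 8.69 at day 4 and was also not above background at day 8, at least 6.1-fold lower (adjusted p = 9.57e-07). Foxq1, a forkhead transcription factor, was lost in the same way, at least 5.49-fold lower (adjusted p = 4.75e-07). Over the alternative settings the log2 change was as small as −1.85 for Sspn, −0.95 for Amh and −0.79 for Foxq1. Slc18a2, the vesicular monoamine transporter, fell by 3.36 (adjusted p = 1.92e-06), and its day 8 arrays were spread, at 6.98, 5.49 and 6.31, against 10.06, 9.39 and 9.43 at day 4. The receptor of anti-Müllerian hormone did not move with its ligand, as the value for Amhr2 above shows.

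Mycl, a member of the Myc family of growth regulators, was high and tight at day 4, at 12.04, 11.89 and 11.70, and fell by 2.55 (SE 0.18, adjusted p = 2.16e-08) to 9.24, 9.31 and 9.42. Adamts19, a secreted metalloprotease, fell by 2.67 (SE 0.15, adjusted p = 1.31e-09) from levels of 11.76 to 11.82 down to 8.88 to 9.35. Gdf15, a stress-induced member of the TGF-beta family, fell by 2.42, Efl1, a GTPase of ribosome maturation, by 1.97, and Srm, spermidine synthase of polyamine synthesis, by 1.80. Synm, an intermediate filament gene, fell by 1.92, although its 3 probes changed by −1.92, −1.54 and −0.32. Fam78a fell by 1.80, and Isyna1, which makes inositol phosphate from glucose phosphate, by 1.72. Probes of the histone H2A genes H2ac21, H2ac11 and H2ac12, whose sequences are near-identical so that probes may share signal, fell by 1.94, 1.85 and 1.76. The call of H2ac21 was lost without repeat 1 or 3 of day 4 or repeat 3 of day 8 (adjusted p = 0.0553, 0.0856 and 0.111), and that of H2ac11 without repeat 3 of day 4 or of day 8 (0.0508 and 0.0533).

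Genes of DNA replication and of mitosis were lower at day 8 almost throughout. Of 25 replication genes tested 21 fell and 0 rose, with a median change of −1.04 against −0.01 for all genes, and of 19 mitosis genes 17 fell and 0 rose, with a median of −0.93. At an unadjusted p under 0.05 the counts in limma were 22 lower and 0 higher for replication and 17 and 0 for mitosis. Mcm7, a subunit of the helicase that unwinds DNA at replication forks, read 8.42, 8.23 and 8.60 at day 4 and 7.16, 6.09 and 6.85 at day 8 (fall of 1.72, adjusted p = 0.0008). Mcm5, of the same complex, read 11.48, 11.45 and 11.32 and then 9.92, 10.14 and 10.26 (fall of 1.31, adjusted p = 1.72e-06). In both genes every day 8 array lay below every day 4 array. Cdt1, which loads that helicase onto origins, fell by 1.32, and Rrm2, the regulated subunit of ribonucleotide reductase, by 1.28.

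On the mitotic side the largest fall was that of Top2a, the topoisomerase that untangles sister chromosomes, with levels of 10.60, 10.80 and 10.01 at day 4 and 8.75, 9.37 and 9.37 at day 8 (fall of 1.31, adjusted p = 0.00437). Ndc80, a kinetochore protein, fell by 1.23 (adjusted p = 5.66e-06), the spindle motor Kif11 by 1.15 and Birc5, or survivin, by 1.09. Pcna (−0.53, adjusted p = 0.292), the sliding clamp of DNA polymerase, and Rfc3 (−0.57), which loads it, did not pass, and neither did the mitotic genes Ube2c (−0.24) and Ttk (−0.26). Among 11 D cyclins and inhibitors of cyclin-dependent kinases 0 rose and 1 fell, Ccnd1 or cyclin D1 by 0.69, and it lost its call without repeat 3 of day 4 or repeat 2 or 3 of day 8. Ccnd2, the cyclin D of granulosa cells, and Cdkn1a, the p21 inhibitor, did not pass (−0.53 and −0.29). Relative to each gene's mean over all days, the median level of the replication list was 0.09, 0.52, 0.32, 0.15, −0.31 and −0.71 on days 0, 2, 4, 5, 6 and 8.

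Promoters are shown for the cell cycle genes because these fell together and because cell cycle promoters are known for short shared motifs. Windows of 300 bases, from 250 before to 50 after the start of the gene, came from RefSeq on GRCm38.p6 and were found for 22 of the replication and 17 of the mitosis genes tested, and for 8176 of all genes tested. Both motifs were picked knowing that these lists had moved, were searched on both strands, and do not contain each other. The E2F site, bound by the E2F factors that drive entry into DNA synthesis, was searched as TTTCCCGC, TTTCGCGC, TTTGCCGC or TTTGGCGC, and stood in 9 of 22 replication promoters (40.9%), in 371 of 8176 promoters of genes tested (4.54%) and in 2.26% of all 32851 windows. The cell cycle homology region, which binds complexes that hold mitotic genes silent outside division, was searched as TTTGAA and stood in 13 of 17 mitosis promoters (76.5%), in 14.3% of genes tested and in 17.9% of all windows. Outside both lists, 50 of the 361 tested genes with an E2F site were lower at day 8 (13.9%), against 7.86% of the 7776 without one, and for TTTGAA the shares were 9.34% of 1156 and 7.92% of 6981. A match describes letters in this window and is not a binding site.

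Members on 1 chromosome, and members without exactly 1 window, were passed over. A gene not shown may thus still hold a match. Of the others, the windows of the called members with the largest falls that held a match are given for each list. They run 5′ to 3′ in the direction of the gene, with the motif in capitals. Those with an E2F site are Cdt1 (chr8:122567765-122568064, plus strand, match starting 32 bases after the start of the gene) and Mcm5 (chr8:75109259-75109558, plus strand, where matches starting 153 and 149 bases before the start overlap, 1 on each strand). Those with TTTGAA or its reverse complement are Top2a (chr11:99024140-99024439, minus strand, 179 and 23 bases before the start) and Ndc80 (chr17:71526808-71527107, minus strand, 29 bases after the start).
Cdt1: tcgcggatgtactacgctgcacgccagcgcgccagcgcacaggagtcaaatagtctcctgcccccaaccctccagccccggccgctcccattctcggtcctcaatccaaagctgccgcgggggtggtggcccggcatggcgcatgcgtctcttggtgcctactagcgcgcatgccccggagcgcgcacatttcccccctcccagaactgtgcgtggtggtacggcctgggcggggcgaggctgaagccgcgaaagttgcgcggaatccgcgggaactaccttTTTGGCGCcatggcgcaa
Mcm5: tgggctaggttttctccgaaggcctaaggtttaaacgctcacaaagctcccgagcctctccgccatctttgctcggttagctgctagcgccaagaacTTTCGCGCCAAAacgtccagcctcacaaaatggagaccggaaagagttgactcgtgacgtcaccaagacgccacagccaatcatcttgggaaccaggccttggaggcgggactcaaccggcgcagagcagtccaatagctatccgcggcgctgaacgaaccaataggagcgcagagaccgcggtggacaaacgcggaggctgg
Top2a: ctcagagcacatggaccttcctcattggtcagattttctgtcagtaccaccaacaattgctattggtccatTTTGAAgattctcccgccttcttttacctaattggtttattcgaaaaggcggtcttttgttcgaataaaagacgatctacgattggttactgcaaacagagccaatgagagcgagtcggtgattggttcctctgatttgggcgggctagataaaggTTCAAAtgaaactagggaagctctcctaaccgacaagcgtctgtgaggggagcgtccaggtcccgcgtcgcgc
Ndc80: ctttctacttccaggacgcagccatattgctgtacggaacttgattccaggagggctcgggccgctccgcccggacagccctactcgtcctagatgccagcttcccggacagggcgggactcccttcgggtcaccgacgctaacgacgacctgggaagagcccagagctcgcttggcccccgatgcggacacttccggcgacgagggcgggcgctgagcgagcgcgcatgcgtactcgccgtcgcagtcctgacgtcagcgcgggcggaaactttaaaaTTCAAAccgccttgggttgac

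Genes that cells induce when amino acids run short, targets of the transcription factor ATF4, also fell as a group. Of 17 tested 10 fell and 0 rose, and the median change was −0.85 (at an unadjusted p under 0.05, 11 lower and 0 higher). In the authors' deposited log2 values the median was −0.35, and it was below 0 under every alternative setting. Phgdh and Psat1, which make serine from glycolytic intermediates, fell by 1.64 (adjusted p = 0.00342) and 1.41 (adjusted p = 3.28e-06). Psat1 was at 10.72, 10.52 and 10.87 at day 4 and at 9.22, 9.46 and 9.20 at day 8, and the days did not overlap. The cationic amino acid carrier Slc7a3 fell by 1.53, the glutathione-degrading enzyme Chac1 by 1.39 and Slc7a11, the cystine importer, by 1.20. The fall of Slc7a3 rests on 1 of its 2 probes, the other having changed by 0.07. Atf4 itself (−0.31, adjusted p = 0.275) and Cebpb (−0.19) did not pass.

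**Figure D2:**
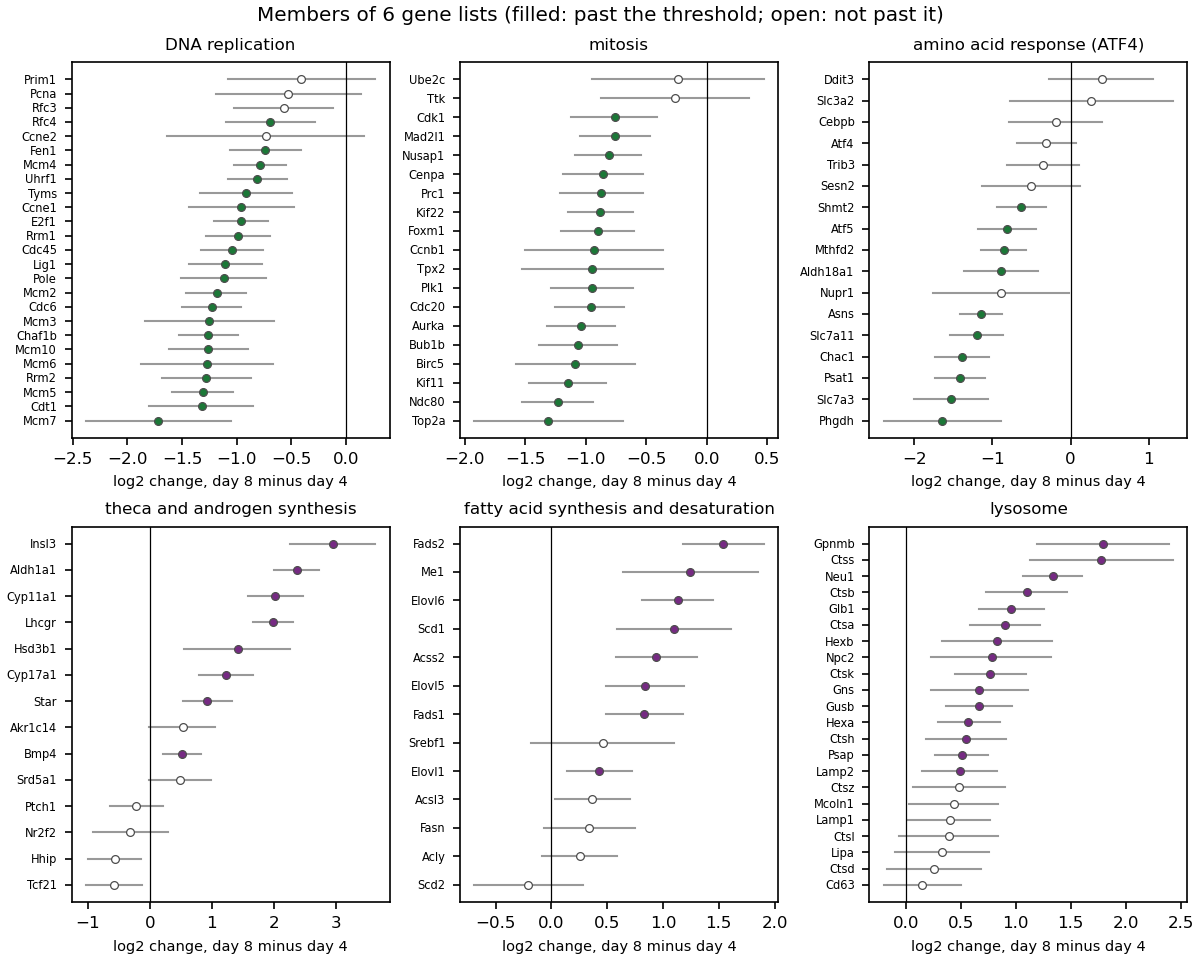
Log2 change from day 4 to day 8 (horizontal axis) of every tested member of 6 lists, with bars for 95% confidence intervals from the fit over 20 arrays and filled points for members that passed. All filled points of DNA replication, mitosis and the amino acid response lie below 0 and all of the other lists lie above 0.

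Steroid-producing genes moved the other way. Of 14 theca and androgen genes tested 8 rose and 0 fell (8 higher and 2 lower at an unadjusted p under 0.05, and 1 fell without repeat 1 of day 4 or repeat 3 of day 8), with a median change of 0.73, or 0.51 once undetected members were set to their bound, and the authors' deposited log2 values gave 0.26. Cyp17a1, the enzyme that commits steroids to androgen, read 11.41, 11.69 and 11.32 at day 4 and 12.36, 12.49 and 13.26 at day 8 (rise of 1.23, SE 0.21, adjusted p = 0.000371). Cyp11a1, which cleaves the cholesterol side chain in the first step of steroid synthesis, read 7.79, 7.66 and 8.45 and then 9.87, 9.96 and 10.15 (rise of 2.03, adjusted p = 2.1e-06). Lhcgr, the LH receptor, rose from 8.78, 9.07 and 8.81 to 10.90, 10.77 and 10.95 (1.99, adjusted p = 5.23e-08). In all 3 genes the lowest day 8 array was above the highest of day 4.

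Star, which carries cholesterol into mitochondria, was above background only at day 8 and there barely so, at least 1.16-fold higher (adjusted p = 0.00152). Hsd3b1, the next enzyme of the pathway, rose by 1.42 (adjusted p = 0.0208), and its call was lost without repeat 2 of day 4 or repeat 1 of day 8 (adjusted p = 0.0775 and 0.0895). Aldh1a1, a retinal dehydrogenase, rose by 2.37 from 10.35 to 10.59 up to 12.78 to 12.92 (adjusted p = 2.95e-08). Tcf21 (−0.58, adjusted p = 0.0722), a transcription factor of stromal and theca precursors, and Akr1c14 (0.53), which reduces steroids, did not pass. Of 12 genes of the LH response and luteinisation 6 rose and 0 fell (at an unadjusted p under 0.05, 7 higher and 1 lower), sharing Cyp11a1, Lhcgr, Hsd3b1 and Star with the theca list. Among them Prlr, the prolactin receptor, rose by 1.73 from 10.59, 10.90 and 10.25 to 11.99, 12.33 and 12.62 (adjusted p = 7.53e-05), while Parm1 (−0.02) did not pass. The list's median was 0.58, but 0.19 once undetected members were set to their bound, and 0.14 from the deposited log2 values. Of 9 genes of cumulus expansion and ovulation, which the LH surge induces, 0 rose and 0 fell, with 0 higher and 1 lower at an unadjusted p under 0.05 in limma.

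Granulosa cell genes did not move one way, and few passed. Of 13 antral and oestradiol genes 2 rose and 2 fell, against 9.1% and 8.21% of all genes, with a median of 0.04. Fshr rose by 0.88 (SE 0.15, adjusted p = 0.000314), from 10.70, 11.02 and 10.96 to 11.79, 11.78 and 11.74, with day 8 arrays almost identical and all above day 4. Inhba, whose product forms activin A and part of inhibin, rose by 0.67 from an already high 14.08 to 14.75 and lost its call without repeat 3 of day 4 or repeat 2 of day 8 (adjusted p = 0.0649 and 0.0658). Igf1 fell by 1.03 and Esr2, the oestrogen receptor of granulosa cells, by 0.61, but the call of Igf1 was lost without repeat 3 of day 4 or repeat 2 or 3 of day 8 and that of Esr2 without repeat 1 or 2 of day 4 or repeat 2 of day 8. Hsd17b1 (0.04), Nr5a2 (−0.21) and Fst (−0.24), the activin-binding follistatin, did not pass.

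Of 10 preantral granulosa genes 2 rose and 2 fell, against 9.1% and 8.21% of all genes, with a median of 0.14. The falls were those of Amh and Slc18a2. Bmpr1b, a receptor of bone morphogenetic proteins, rose by 0.61 and lost its call without repeat 1 of day 4 or repeat 1 or 2 of day 8. Kitl, the ligand with which granulosa cells stimulate the oocyte and theca, rose by 1.37 (adjusted p = 0.0152), from 7.50, 7.47 and 6.98 to 8.32, 8.63 and 9.12, and lost its call without repeat 3 of day 4 or of day 8 (adjusted p = 0.0614 and 0.0776). Gja1, the gap junction protein between granulosa cells, did not pass (0.07). Among 8 genes of crosstalk between oocyte and granulosa cells 2 rose and 1 fell: besides Kitl, Nppc, whose peptide holds the oocyte in meiotic arrest, rose by 0.99, and Gja4, the gap junction protein of the oocyte, fell by 0.59. Nppc lost its call without repeat 1 or 2 of day 4 or repeat 1 or 2 of day 8, and Gja4 without repeat 1 of day 4 or repeat 1 or 3 of day 8. Of 14 ovarian transcription factors 1 rose and 1 fell, Gata6 (0.41) and Esr2, near the 9.1% and 8.21% of all genes. Gata6 lost its call without repeat 1 of day 4 or repeat 1 or 2 of day 8.

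Oocyte genes were lower at day 8, with 11 of 26 falling, 0 rising and a median of −0.56 (14 lower and 1 higher at an unadjusted p under 0.05). In a pool of whole follicles a smaller share of oocyte RNA and less of it per oocyte cannot be told apart. Gdf9, the oocyte growth factor that acts on granulosa cells, had levels of 13.15, 12.65 and 12.72 at day 4 and 11.59, 11.78 and 11.84 at day 8 (fall of 1.10, SE 0.17, adjusted p = 0.000181). Bmp15, its partner, had 11.65, 11.13 and 11.47 and then 10.00, 10.42 and 10.26 (fall of 1.19, adjusted p = 0.00091). Neither gene's days overlapped. Fgf8, another oocyte signal, fell by 1.37, and Zp1, of the egg coat, by 0.87, while Oosp1 (−0.29) and Ooep (−0.32) did not pass. Without repeat 1 of day 4, or without repeat 1 of day 8, 7 of the 26 fell, and with the replicate number as a block in the fit 7 did.

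**Figure D3:**
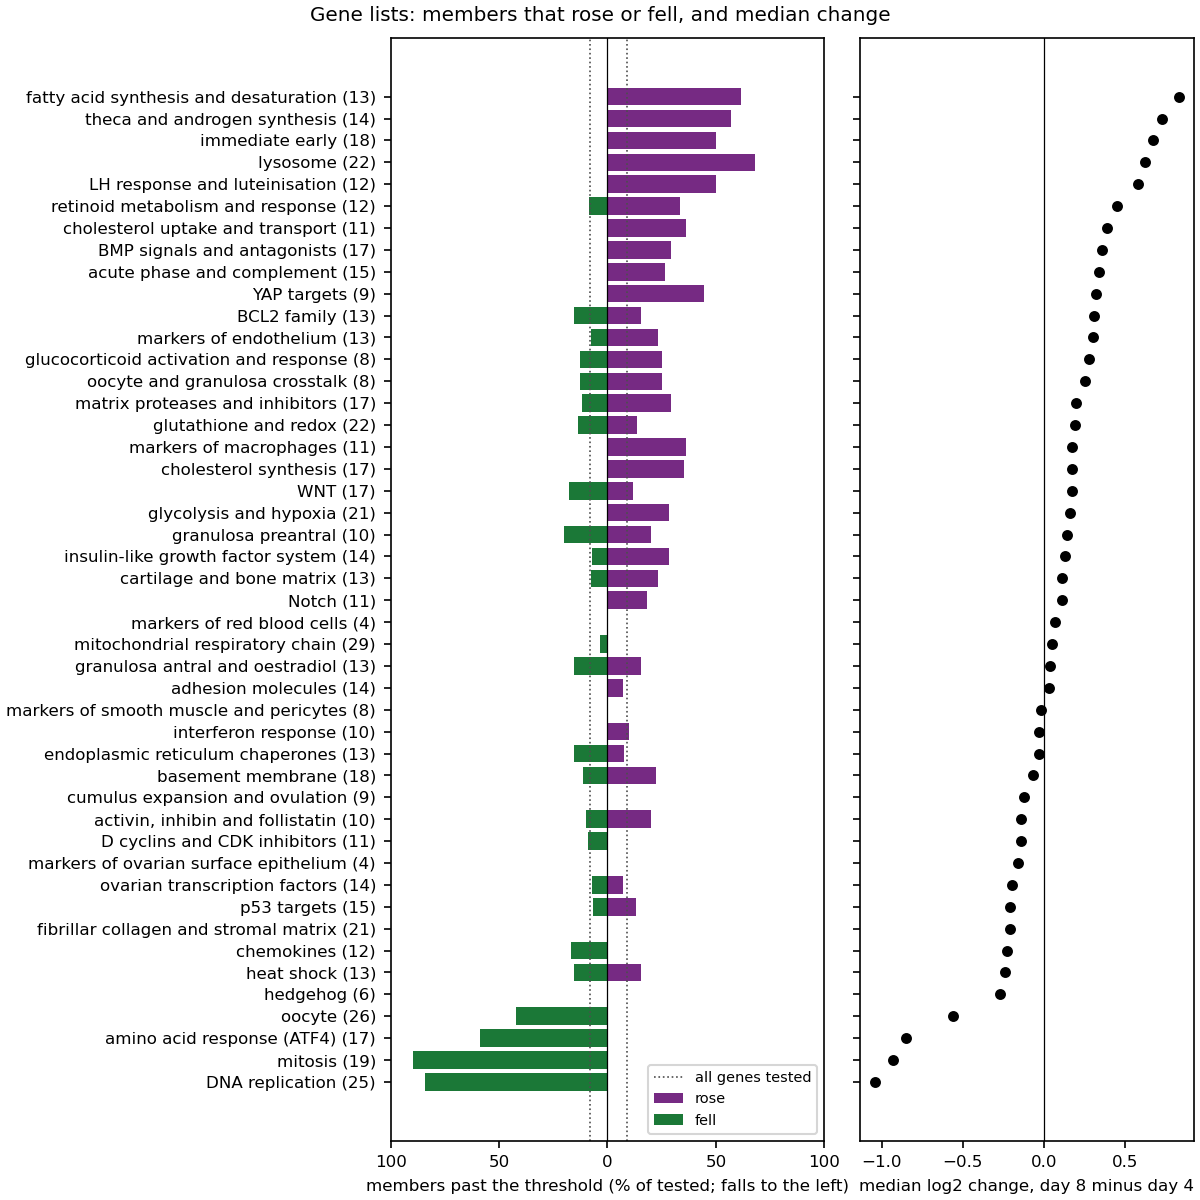
For each gene list with at least 4 tested members (number in brackets), the left panel gives the percentage of members that rose (to the right) or fell (to the left), with dotted lines at the 9.1% and 8.21% of all genes tested, and the right panel the median log2 change. The lists are ordered by that median, from DNA replication at −1.04 to fatty acid synthesis and desaturation at 0.83.

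Among lipid genes, 8 of fatty acid synthesis and 6 of cholesterol synthesis rose. Of 13 genes of fatty acid synthesis and desaturation 8 rose and 0 fell (at an unadjusted p under 0.05, 9 higher and 0 lower), with a median of 0.83 and a range over the settings of 0.51 to 0.87. Fads2, a desaturase of polyunsaturated fatty acids, read 8.06, 8.31 and 7.79 at day 4 and 9.54, 9.54 and 9.70 at day 8 (rise of 1.54, SE 0.17, adjusted p = 4.75e-06). Elovl6, which elongates palmitate, rose by 1.13 (adjusted p = 3.65e-05), the malic enzyme Me1 by 1.24 and the desaturase Scd1 by 1.10. In each of these the lowest day 8 array was above the highest day 4 array. Acly (0.26) and Scd2 (−0.21) did not pass. The difference between the fatty acid and cholesterol lists was not tested.

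Of 17 genes of cholesterol synthesis 6 rose and 0 fell, with a median of 0.17 (8 higher and 1 lower at an unadjusted p under 0.05). Dhcr7, a late enzyme of the pathway, rose by 0.75 (adjusted p = 0.00812), losing its call without repeat 1 of day 4 (adjusted p = 0.0562). Sqle (0.05), an early control step of the sterol branch, and Fdps (−0.08) did not pass. Without repeat 2 of day 4, or with the 6 arrays alone, 3 members rose. Of 11 genes of cholesterol uptake and transport 4 rose and 0 fell, with a median of 0.39 (5 higher and 0 lower at an unadjusted p under 0.05). For this list 2 members rose without repeat 2 or 3 of day 4, without repeat 1 or 3 of day 8, without the filter on dim probes, with the 15 cultured arrays alone and with the 6 arrays alone.

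Most lysosomal genes were higher at day 8. Of 22 tested 15 rose and 0 fell, at a median of 0.62 (18 higher and 0 lower at an unadjusted p under 0.05), and 8 rose with the 6 arrays alone. Neu1, a lysosomal sialidase, read 9.08, 9.24 and 9.23 at day 4 and 10.32, 10.62 and 10.62 at day 8, well apart (rise of 1.34, SE 0.13, adjusted p = 6.91e-07). Ctsb, the protease cathepsin B, rose by 1.10 (adjusted p = 0.000191), Ctss, cathepsin S, by 1.78 and Gpnmb, a membrane glycoprotein of lysosomes and phagocytes, by 1.79. Lamp1 (0.40, adjusted p = 0.142) and Cd63 (0.15), membrane proteins of the lysosome, did not pass.

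Macrophages are rich in lysosomes, and 4 of 11 macrophage markers tested rose with the lysosomal genes. Their summed signal ranged from 10.54 to 11.43 on the log2 scale at day 4 and from 12.14 to 12.96 at day 8. Lyz1 and Lyz2, near-identical lysozyme genes whose probes may share signal, rose by 1.64 and 1.63, Laptm5, a lysosomal protein of blood cells, by 1.68 and Cd68 by 0.79, the last losing its call without repeat 1 or 2 of day 4 or repeat 1 or 3 of day 8. The defining markers Adgre1, C1qa, C1qb and C1qc were above background on no array of either day, Csf1r and Ptprc did not pass the filter on dim probes, and Mrc1 (0.14) and Cd14 (−0.12) did not pass the test. The part of macrophages in the lysosomal rise was not tested.

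Among other cell types, 3 of 13 endothelial markers rose and 1 fell, against 9.1% and 8.21% of all genes. Their summed levels were 10.95 to 11.41 at day 4 and 11.28 to 11.49 at day 8. Robo4, a receptor of vessel walls, rose by 1.68 (adjusted p = 1.33e-05), the claudin Cldn5 by 1.21 and Cdh5 by 0.82, whereas Egfl7 fell by 0.55 and Emcn (−0.22) did not pass. The second probe of Robo4 changed by −0.10, and the other probes of Egfl7 by −0.78 and 0.11. The calls of Cdh5 and Egfl7 were lost when single arrays were left out, Cdh5 without repeat 1 of day 4 or repeat 2 of day 8 and Egfl7 without any 1 of repeats 1 to 3 of day 4 or repeats 1 and 2 of day 8. Without repeat 3 of day 4, 5 endothelial markers rose. None of 8 smooth muscle and pericyte markers, 4 red blood cell genes, 4 surface epithelium markers, 1 lymphocyte marker or 1 adipocyte marker tested passed in limma, and at an unadjusted p under 0.05 there were 0 higher and 0 lower, 0 and 0, 0 and 1, 0 and 0, and 0 and 1 in turn. Without repeat 2 of day 4, 1 of the 4 red blood cell genes fell.

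Growth factor systems changed member by member. Of 14 genes of the insulin-like growth factor system 4 rose and 1 fell, with a median of 0.13 that changed sign under 2 of the alternative settings. Against the rise of Igf2 and the fall of Igf1 already given, the binding proteins Igfbp6 and Igfbp3 rose by 1.80 (adjusted p = 0.00012) and 1.41 (adjusted p = 0.00864), the latter losing its call without repeat 3 of day 8 (adjusted p = 0.0574). Igfbp6 read 7.15, 7.59 and 7.22 at day 4 and 8.93, 9.49 and 8.95 at day 8, with no overlap. Igfbp5 (−0.06) and Igfbp7 (−0.20) did not pass.

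Of 17 bone morphogenetic protein signals and antagonists 5 rose and 0 fell (median 0.36, with 8 higher and 2 lower at an unadjusted p under 0.05), and 3 rose without repeat 2 of day 8 or with the 6 arrays alone. Besides Grem1, a further antagonist, Chrd or chordin, was not above background at day 4 and was at least 1.8-fold higher (adjusted p = 7.23e-05). Id2, a target of the pathway, rose by 1.20 (adjusted p = 0.0015), while Id1 (0.53) and the receptor Bmpr1a (0.36) did not pass. Of 10 activin, inhibin and follistatin genes 2 rose and 1 fell: Acvr1, a type I receptor, rose by 0.74, and Smad2, which carries the activin signal, fell by 1.10 (adjusted p = 0.000332). Of 17 WNT genes 2 rose and 3 fell, not far from the 9.1% and 8.21% of all genes, with Wnt6 up by 1.07 (adjusted p = 0.000562) and the secreted Dkk3 down by 1.05 (adjusted p = 0.00032). The other 2 falls, of the WNT antagonists Sfrp2 (−0.89) and Sfrp1 (−0.65), were both lost without repeat 1 or 3 of day 4 or repeat 2 of day 8, where 1 of 17 fell. The rises numbered 1 without repeat 1 or 2 of day 4 or repeat 1 of day 8.

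Of 11 Notch genes 2 rose and 0 fell, against 9.1% and 8.21% of all genes. The rises were those of the receptor Notch4 (0.74) and of Nrarp (0.68), a feedback inhibitor. The call of Nrarp was lost without repeat 1 or 2 of day 4 or repeat 1 or 3 of day 8. The second probe of Notch4 changed by −0.01, and the mean of both by 0.36 (adjusted p = 0.144 in limma). Of 6 hedgehog genes 0 rose and 0 fell, with 0 higher and 2 lower at an unadjusted p under 0.05 in limma. In retinoid metabolism 4 of 12 genes rose and 1 fell (median 0.45). The rises were those of Aldh1a7, whose probe may also pick up Aldh1a1, of Aldh1a1, of Aldh1a2 (0.82) and, named after its value was seen, of Adh1 (0.79). Stra6, a receptor that takes up retinol, was not above background at day 8 and at least 1.24-fold lower (adjusted p = 0.00412), though it missed the threshold in the authors' values. The call of Aldh1a2 was lost without repeat 2 or 3 of day 4 or of day 8. Crabp2 (0.80), which binds retinoic acid in the cell, did not pass.

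The matrix rises were narrow. Of 13 cartilage and bone matrix genes 3 rose, Comp, Ibsp and Spp1 (0.98, adjusted p = 0.00279), which encodes osteopontin, and 1 fell, Col9a2 of collagen IX, by 1.32 (adjusted p = 0.000562). Their median was 0.11, and Mgp (−0.04), Phex (0.11) and Vcan (−0.39) did not pass. Of 21 fibrillar collagen and stromal matrix genes 0 rose and 0 fell in limma, with a median of −0.21 and 2 higher and 3 lower at an unadjusted p under 0.05, and at most 1 passed with any single array of days 4 and 8 left out. Of 18 basement membrane genes 4 rose and 2 fell: Sparc, which binds collagen IV, rose by 0.82 from 11.93, 11.81 and 12.03 to 12.55, 12.79 and 12.91 (adjusted p = 0.000182), and Lama1, a laminin chain, fell by 0.72. The main collagen IV chains, Col4a1 (−0.20) and Col4a2 (−0.38), did not pass. The 4 basement membrane rises were down to 2 without any 1 of repeats 1 to 3 of day 4 or repeat 3 of day 8, and to 1 without repeat 2 of day 8.

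Of 17 matrix proteases and inhibitors 5 rose and 2 fell. Plau, the urokinase that activates plasmin, read 7.23, 7.80 and 8.38 at day 4 and 9.36, 9.55 and 9.19 at day 8 (rise of 1.56, adjusted p = 0.000354). Inhibitors of metalloproteases rose beside it, Timp2 by 1.20 from 10.90 to 11.01 up to 12.08 to 12.24 (adjusted p = 8.81e-06) and Timp3 by 1.16, as did the gelatinase Mmp9 by 1.29. Mmp14 (0.20) and Mmp2 (−0.10) did not pass. Among 14 adhesion molecules Vcam1 was the 1 that rose and 0 fell, with Itgb1 at 0.01 and Itga6 at −0.41.

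Immediate early genes, which cells switch on within minutes of a stimulus, were higher at day 8 than at day 4. Of 18 tested 9 rose and 0 fell (12 higher and 0 lower at an unadjusted p under 0.05), with a median of 0.67 and a range over the settings of 0.52 to 0.90. Atf3, a stress-induced transcription factor, read 5.2, 5.39 and 5.97 at day 4 and 7.41, 7.25 and 7.85 at day 8 (rise of 1.98, SE 0.31, adjusted p = 0.000151). Klf4 rose by 1.64, Egr2 by 1.36 and Klf6 by 1.33, and the other probes of Klf4 changed by 0.61 and 0.59, while Fos (0.55, adjusted p = 0.0664) and Fosb (0.64) did not pass. All follicles were released from alginate with an enzyme before freezing, and its part in these levels was not tested.

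Of 9 targets of the mechanical-signal factor YAP 4 rose and 0 fell, with a median of 0.32 (4 higher and 0 lower at an unadjusted p under 0.05). Nuak2, a kinase, read 5.48, 5.61 and 5.49 at day 4 and 7.34, 7.46 and 6.91 at day 8 (rise of 1.71, adjusted p = 2.53e-06). The matricellular genes Ccn1 and Ccn2 rose by 1.70 and 1.38, with repeat 3 the highest day 8 array in both, at 10.22 and 13.10. Axl (0.32) and Tgfb2 (−0.01) did not pass.

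Acute phase genes rose in part, 4 of 15 with 0 falling and a median of 0.34 (4 higher and 0 lower at an unadjusted p under 0.05). Lbp, which binds bacterial lipopolysaccharide, had levels of 6.48, 6.65 and 6.31 at day 4 and 8.77, 8.49 and 8.45 at day 8 (rise of 2.09, adjusted p = 1.86e-05). The others were Lcn2 and the near-identical protease inhibitors Serpina3g (1.78) and Serpina3n (1.42), whose probes may share signal, and Saa3 (0.34, adjusted p = 0.657) did not pass. Of 12 chemokine genes 0 rose and 2 fell, Cxcl12 (fall of 0.75, adjusted p = 0.00687) and Cx3cl1 (fall of 0.58), the latter losing its call without repeat 1 or 2 of day 4 or of day 8. Of 10 interferon response genes 1 rose, Oasl2 (0.76), which missed the threshold without repeat 1 or 2 of day 4 or repeat 1 of day 8, and 0 fell, with 2 higher and 0 lower at an unadjusted p under 0.05.

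Genes of glycolysis and the hypoxia response rose in 6 of 21 cases with 0 falling and a median of 0.16 (7 higher and 0 lower at an unadjusted p under 0.05). The rises included known hypoxia targets besides glycolytic enzymes: Egln3, an oxygen-sensing hydroxylase not above background at day 4, was at least 1.87-fold higher (adjusted p = 0.00495), and Ankrd37 and Ndrg1 rose by 1.22 and 1.09. Aldoc, an aldolase, rose by 1.20 and lost its call without repeat 1 of day 4 (adjusted p = 0.0521), and Ankrd37 lost its call without repeat 2 of day 4 or repeat 1 of day 8 (0.0646 and 0.0601). Without repeat 1 of day 8, and with the replicate number as a block, 3 members rose. Tpi1 (0.31) and Gapdh, both glycolytic enzymes, did not pass. Of 29 genes of the mitochondrial respiratory chain 0 rose and 1 fell, Cyc1 by 0.45 (adjusted p = 0.0243), with a median of 0.05, and its call was lost without repeat 1 of day 4 or of day 8.

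Of 22 redox genes 3 rose and 3 fell (median 0.19), each share not far from the 9.1% and 8.21% of all genes. Gpx3, a secreted glutathione peroxidase, read 7.48, 8.12 and 8.70 at day 4 and 9.83, 10.29 and 10.10 at day 8 (rise of 1.97, adjusted p = 2.26e-05). Gstm1 and Gstm2, glutathione transferases similar enough that probes may share signal, rose by 1.01 and 0.98, with a second Gstm1 probe at 0.24. Prdx1 (0.10) and Sod1 (−0.09) did not pass. Of 8 genes of glucocorticoid activation and response 2 rose and 1 fell, against the same 9.1% and 8.21%. Tsc22d3 rose by 0.81 (adjusted p = 0.000379) and Dusp1 by 1.25, and Fkbp5 fell by 0.52, all known glucocorticoid targets. The call of Fkbp5 was lost without repeat 1 or 2 of day 4 or repeat 1 or 3 of day 8.

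Stress and survival lists stayed near the background shares of 9.1% and 8.21% and are read as no more than that. Heat shock genes numbered 2 rising and 2 falling of 13, with Hsph1, a chaperone of the large heat shock family, down by 0.86 (adjusted p = 0.000183) and the small heat shock gene Hspb1 up by 0.68 (adjusted p = 0.0107). The calls of Hspa1a (0.64) and Hsf1 (−0.56) were each lost when any 1 of 4 arrays was left out. Endoplasmic reticulum chaperones numbered 1 rising and 2 falling of 13, with Creld2 down by 0.89 and Dnajb9 up by 0.62. Of 15 p53 targets 2 rose and 1 fell, and the fall was that of Gdf15. Of 13 BCL2 family genes 2 rose and 2 fell, among them the killer genes Bbc3 (0.57) and Bok (−0.51). The other probe of Bbc3 changed by 0.04, and the mean of both by 0.30 (adjusted p = 0.384 in limma). Without repeat 1 of day 4, 0 of the 13 rose and 1 fell. Bok also lost its call without repeat 3 of day 8.

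Days 5 and 6, whose means do not enter the contrast that called the genes, were used to describe the course of the change. Among the 973 genes higher at day 8 the day 5 mean lay between those of day 4 and day 8 in 86% and the day 6 mean in 86.9%, and among the 877 lower genes in 88.7% and 83.8%. In the median higher gene 29% of the change had been reached at day 5 and 67.4% at day 6, and in the median lower gene 34.9% and 69.3%. Since these shares are relative to the same day 4 and day 8 means that chose the genes, they are a description. They were not computed over all genes tested. Comp had come most of the way by day 6, with means of 5.84, 8.91, 11.00 and 11.07 on days 4, 5, 6 and 8, whereas Ibsp rose mainly after day 6, with 5.55, 5.77, 6.92 and 9.31. Mycl had reached 9.36 at day 6 and 9.32 at day 8, while Sspn, at 8.13 on day 6, was lost after it. Repeat 1 of day 6 stood apart from the other arrays of its day, at a within-day SD of 0.46 over genes, and without it 2355 genes passed between day 4 and day 8, among them all 1850.

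**Figure D4:**
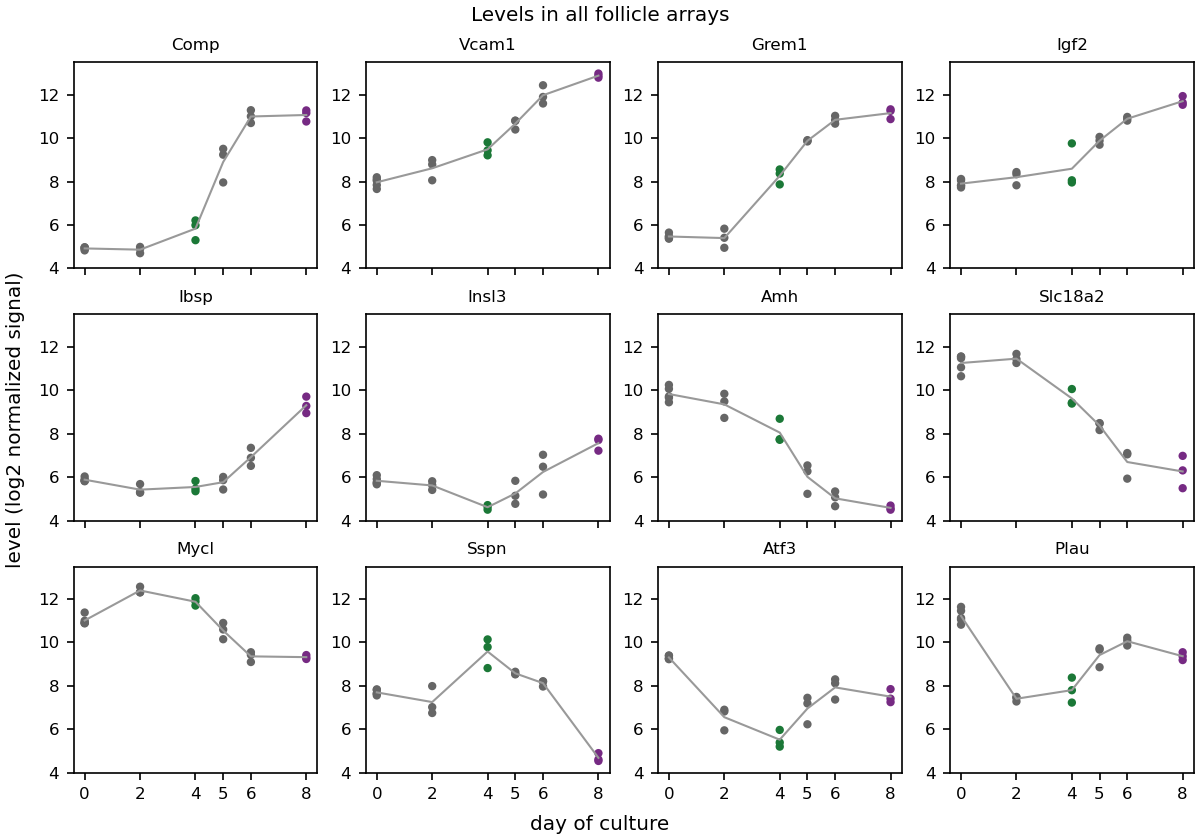
Levels (log2 normalized signal, vertical axis) of 12 genes on all 20 follicle arrays by day of culture (horizontal axis), with day 4 in green, day 8 in purple, other days in grey and a line through the day means. Comp and Grem1 were near their day 8 level at day 6, Ibsp rose mainly between days 6 and 8, and Atf3 and Plau fell before day 4 and rose after it.

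The change from day 4 to day 8 was set against the earlier change, from day 0 (5 arrays) to day 4, in the same fit. It differed for 1847 of 10688 genes (17.3%), more positive in the later period for 1036 and more negative for 811. Both periods share the day 4 arrays, so a gene that is low or high on those arrays moves them in opposite directions. The 5 day 0 arrays carry reference titles, and whether each holds a separate pool was not tested. Counting day 0 as 1 sample, 682 genes differed, and the counts were 1215 without repeat 1 of day 4 and 1199 without repeat 2. Rasl10a, a Ras-like GTPase gene, shows a turn: its mean rose from 8.95 at day 0 to 11.33 at day 4, and it then fell by 1.39 to 9.95 at day 8 (later change minus earlier change, −3.77). Plau and Atf3 turned the other way, Plau with means of 11.22, 7.80 and 9.37 on days 0, 4 and 8 and Atf3 with 9.31, 5.52 and 7.50. Inhba slowed rather than turned, gaining most of its rise before day 4, with means of 9.35, 14.08 and 14.75.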

How the data were processed

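Illumina bead arrays measured RNA of mouse follicle pools, and the 6 arrays of days 4 and 8 were grouped by the day in the labels. Per the file headers, the deposited values are mean bead signal intensity per probe, not normalized, with a detection p-value per probe and array. The authors also deposited log2 values normalized between arrays by a method not given in the sources used here (23286 probes, array medians 7.87 to 7.89, scale read from the values), which served as an alternative. Slide, scanner and software are not given in the sources used here. Intensities were background corrected with neqc of limma 3.58.1 (R 4.3.3, offset 16, from detection p-values) and quantile normalized over the 20 follicle arrays. A probe was kept if its detection p fell below 0.05 on 3 or more of the 20 arrays (14490 of 25697), and the probe with the highest mean stood for each of 10688 genes. Through RefSeq 2902 distinct gene symbols were updated, and 904 were kept under the file's name. lmFit and eBayes fitted 1 mean for each day over the 20 arrays, and p-values were adjusted by Benjamini-Hochberg over all 10688 genes at a threshold of 0.05. Where a probe was not above background on every array of 1 day, the fold is a lower bound against the lowest detected signal of each array. That bound belongs to this processing, and the alternatives can give smaller changes. The model was tested on simulated data. Precision is limited by 3 arrays a day. Detection reached 47.1% to 50.1% of probes on these 6 arrays, with median signals of 96.2 to 148.

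Genes named are the 15 largest rises and falls that passed without overlap of arrays, up to 4 members past and 2 not past the threshold from each of 48 lists (those not passing by highest mean), and the 5 largest differences between the changes before and after day 4 in each direction, with RIKEN and Gm names passed over. Identity markers are named besides. A few genes that this rule selects are not reported here. The members and lists were chosen with earlier results of these data known, and 51 genes are in more than 1 list. Alternatives were the authors' values, other background, normalization, filter and probe rules, array weights, fewer arrays, the replicate block and leaving out each array. Leaving out repeat 1 of day 6 was chosen after seeing the data.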

Additional observations from a re-analysis of the deposited data

Results flagged for a closer look

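For 10 genes the change from day 4 to day 8 differed from the change from day 0 to day 4, tested as a contrast in limma and picked as the 5 largest differences in each direction, on the log2 scale. Both changes share the day 4 arrays. The difference was 6.67 for Hba-a1, an alpha globin gene, 5.77 for Atf3, 5.36 for Pdrg1, 5.12 for Rsad2, an interferon-induced gene, and 4.98 for Plau. It was −6.79 for Sspn, −4.06 for Inhba, −4.00 for Drd4, a dopamine receptor gene, −3.77 for Rasl10a and −3.74 for Efl1. Hba-a1 had means of 11.44, 4.69 and 4.61 on days 0, 4 and 8, so its difference came from the days before day 4, and its change from day 4 to day 8 did not pass (adjusted p = 0.754 in limma). Rsad2 (9.46, 4.79 and 5.23) and Drd4 (5.36, 8.88 and 8.40) did not pass after day 4 either (adjusted p = 0.19 and 0.12 in limma). Sspn (7.7, 9.58 and 4.68) and Efl1 (7.89, 9.66 and 7.69) rose and then fell, and Pdrg1 had means of 8.2, 6.16 and 9.49. The difference of Pdrg1 missed the threshold with day 0 as 1 sample (adjusted p = 0.061) and without repeat 1 or 2 of day 4 (0.0546 and 0.0543).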

How the results depend on the processing

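Of the 147 named genes that passed, 0 reversed under any of the 17 alternatives in which they were tested. The authors' values held 141 of them, and the filter at a detection p under 0.01 held 145. Genes chosen for lack of overlap could not reverse when 1 array of day 4 or day 8 was left out. With the 6 arrays alone 1204 genes passed, 647 higher and 557 lower, with the smaller number of arrays behind the spread. Leaving out each array of days 4 and 8 in turn gave 1276 to 1626 genes, 643 to 907 higher and 623 to 735 lower. The changes before and after day 4 differed for 1199 to 1812 genes when an array was left out (1215 without repeat 1 of day 4) and for 682 with day 0 as 1 sample. The same repeat numbers of days 4 and 8 did not deviate together (correlations of 0.0624, 0.0708 and −0.251). The labels do not say that a repeat number marks 1 experiment across days, and these correlations cannot decide it. The replicate block, fitted on the 15 cultured arrays, gave 1309 genes, 712 higher and 597 lower, and 22 of 147 named calls were lost. With the 15 cultured arrays and no block 1316 passed. In the authors' values 10 of 141 named calls were lost and 77 changes were over 1.5 times smaller, and without background correction 4 of 147 and 41. The share of calls that were higher lay between 50.4% and 56.1% (52.6% as reported). The cause of these shifts was not tested. Of the 10688 genes, 382 were above background on no array of either day, where signal over background sets the limit.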
